A study of Mus musculus with 6 samples.

Results

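The 7 genes described here encode regulators of type 1 effector and memory lymphocytes, and were taken by symbol from a table of 47643 genes: Tbx21, Eomes, Zeb1, Zeb2, Hopx, Prdm1 and Bhlhe40. All 7 were present under a single identifier and all 7 were among the 12760 genes with enough counts to be tested. They were measured by polyadenylated RNA sequencing of invariant natural killer T (iNKT) cells of the NKT1 subset, sorted by flow cytometry from thymocytes of WT BALB/c mice. The groups are CD4-positive NKT1 cells (3 libraries) and CD4-negative NKT1 cells (3 libraries), and differ by the coreceptor alone in the labels. The labels give no age, sex, treatment or pooling of animals. They do not say whether replicates are separate animals either, so the spread behind each p-value is that of the libraries and may be technical. Values are given in the order of replicates 1, 2 and 3 of a group.

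iNKT cells see lipids on CD1d through a T cell receptor of little diversity, and the NKT1 subset is defined by T-bet, the product of Tbx21. T-bet and Eomesodermin (Eomes) are T-box factors that drive interferon gamma, cytotoxic genes and the interleukin 15 receptor chain in NK cells and CD8 T cells, where T-bet leads terminal effector cells and Eomes memory cells. Zeb1 and Zeb2 are zinc-finger repressors with opposed roles in CD8 T cells, Zeb1 in memory and Zeb2 in terminal effector cells downstream of T-bet. Hopx is a homeodomain-only protein without DNA binding that supports survival of effector cells, Blimp-1 (Prdm1) is a repressor of effector and tissue-resident cells, and Bhlhe40 is a basic helix-loop-helix repressor induced by receptor signals.

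By GENCODE M21 (GRCm38) all 7 are protein-coding. Tbx21 lies on chromosome 11 from 97098071 to 97115331, Eomes on chromosome 9 from 118478212 to 118486132, Zeb2 on chromosome 2 from 44983632 to 45117395 and Hopx on chromosome 5 from 77086988 to 77115121. Prdm1 lies on chromosome 10 from 44437177 to 44528501 and Bhlhe40 on chromosome 6 from 108660629 to 108666925.

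The 250 bases before the transcription start of the T-box genes are shown (RefSeq, build GRCm38.p6, 5′ to 3′ on the gene's strand). These paralogs were chosen because the groups overlapped for Tbx21 but not for Eomes, although neither gene passed edgeR's test after adjustment. Tbx21 lies on the minus strand (window chr11:97115332-97115581) and Eomes on the plus strand (window chr9:118477939-118478188), and capitals mark a match to a motif of the regulators.
Tbx21: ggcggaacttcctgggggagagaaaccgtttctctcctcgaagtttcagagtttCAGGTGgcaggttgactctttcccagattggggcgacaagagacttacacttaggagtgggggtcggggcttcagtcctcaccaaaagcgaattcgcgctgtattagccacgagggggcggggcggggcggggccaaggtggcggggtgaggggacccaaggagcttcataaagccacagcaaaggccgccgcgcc
Eomes: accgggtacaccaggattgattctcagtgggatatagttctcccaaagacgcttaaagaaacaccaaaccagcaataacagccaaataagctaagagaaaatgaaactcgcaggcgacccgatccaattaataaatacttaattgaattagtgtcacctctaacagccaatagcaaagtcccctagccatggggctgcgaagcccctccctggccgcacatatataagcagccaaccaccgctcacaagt
Searched on both strands were the T-box half-site TCACAC (in 12.3% of 32851 windows of this length), the E-box CACCTG bound by ZEB proteins (17.2%), the E-box CACGTG bound by BHLHE40 (6.02%) and the PRDM1 core AGNGAAAG (7.3%), whose matches do not overlap in these windows. The Tbx21 window held the ZEB E-box once, starting at base -196 from the start site, and the Eomes window held none of the 4 motifs.

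The libraries held 40480468 to 53145898 estimated counts, so 1 count was worth 0.0188 to 0.0247 CPM (counts relative to the library total), by counting error only. Levels are TMM-scaled CPM, mean ± SD with n = 3, and differences are log2, CD4-positive minus CD4-negative, with 95% intervals from edgeR. Cd4, the sort marker, stood at 453 ± 53.7 and 22.7 ± 16.2 CPM. Markers of T and NKT1 cells were present in each library: of 12 iNKT and T cell markers 11 were tested, with a sum of 3993 to 4950 CPM in CD4-positive and 3770 to 5678 CPM in CD4-negative libraries, and Traj18, a short receptor joining segment, was at 0. All 10 NKT1 markers, Il2rb and Cxcr3 among them, were tested and summed to 4427 to 5610 and 4995 to 5316 CPM. CD4-negative replicate 3 stood apart on the first principal component (score -90.2, the others -2.31 to 32.2), and its genes with the longest exons (6485 bases or more) lay lower than those with the shortest (2472 bases or less; a difference of medians of -0.47 on the log2 scale), against -0.15 to 0.30 in the other 5 libraries.

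None of the 7 regulators passed edgeR's quasi-likelihood test at an adjusted p under 0.05, where 0.212% of all tested genes passed (27 of 12760; 0.141% lower and 0.0705% higher in CD4-positive cells). At an unadjusted p under 0.05, 1 of 7 passed, Eomes, against 4.44% of all tested genes (567). Eomes was also the 1 regulator of 7 whose groups did not overlap, against 9.41% of all tested genes (4.57% lower and 4.84% higher in CD4-positive cells). DESeq2, on the same genes, called Eomes and no other regulator. It called 191 of all 12760 genes, 112 of them lower in CD4-positive cells, against the 27 of edgeR. With the replicate number added as a term in edgeR, no gene of all 12760 passed (smallest adjusted p 0.0558). The edgeR calls named below were all lost in that fit.

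**Figure D1:**
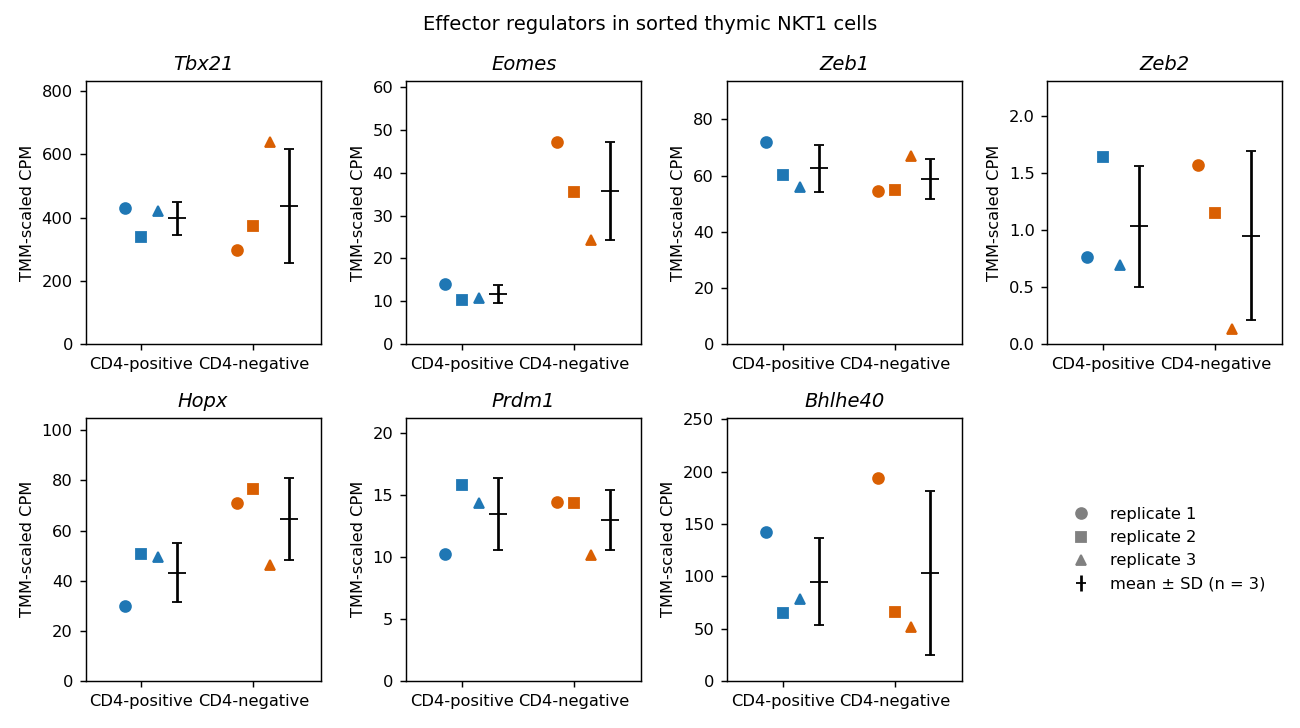
TMM-scaled CPM of the 7 regulators in each library (points, with a shape for each replicate number) and the group mean ± SD with n = 3 (black), each panel with an axis from 0. The Eomes values of CD4-negative libraries (24.3 to 47.2 CPM) all lie above those of CD4-positive libraries (10.2 to 14.0 CPM), and the groups overlap in the other 6 panels.

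Tbx21, the gene that defines the NKT1 subset, was at 431, 339 and 422 CPM in the CD4-positive libraries and at 297, 373 and 639 CPM in the CD4-negative libraries. The highest and the lowest library were both CD4-negative, and the CD4-positive values lay between them. The means were 397 ± 51.0 and 437 ± 180 CPM, a difference of -0.14 (SE 0.29, 95% interval -0.82 to 0.55; edgeR adjusted p = 1.0). Without CD4-negative replicate 3, the highest library, the sign turned to 0.25 (adjusted p = 0.998). A 2-fold difference in either direction lies outside the interval.

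Eomes, the other T-box factor of effector lymphocytes, was at 14.0, 10.2 and 10.8 CPM in the CD4-positive libraries and at 47.2, 35.4 and 24.3 CPM in the CD4-negative libraries. These values rest on 529 to 682 counts in CD4-positive and 930 to 2193 counts in CD4-negative libraries. All CD4-negative libraries lay above all CD4-positive libraries, and the lowest of them was replicate 3, the library that stood apart. The CD4-negative mean was 3.05-fold that of CD4-positive cells (35.6 ± 11.5 against 11.7 ± 2.06 CPM), a log2 difference of -1.61 (SE 0.27, 95% interval -2.25 to -0.97). Its unadjusted p of 0.000491 was 65th of 12760, and its adjusted p was 0.0964 by edgeR. Without CD4-negative replicate 3 the difference was -1.82 with an adjusted p of 0.0301, with no filter on low counts the adjusted p was 0.0285, and DESeq2 gave 1.18e-05 on the same genes. Over all 14 alternatives the difference was below 0, and the adjusted p was between 1.18e-05 and 0.541, so the call depends on the tool, the filter and the libraries used. Within libraries of the first naming scheme (replicates 1 and 2) the difference was -1.77, and within replicate 3, named in another way, it was -1.17, with 1 library per group.

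Eomes and Tbx21 can be set against each other within a library, which removes the scaling but not an effect of exon length. Tbx21 has 2488 bases of exon and Eomes 4155. In CD4-negative replicate 3 the genes with the longest exons lay lower than those with the shortest. The part of this in the ratio, and in the Tbx21 value of that library, was not tested. The log2 ratio of Eomes to Tbx21, in CPM, was -4.94, -5.05 and -5.29 in the CD4-positive libraries and -2.65, -3.39 and -4.72 in the CD4-negative libraries. Every CD4-negative ratio was above every CD4-positive ratio, with replicate 3 of the CD4-negative group only slightly so. The means were -5.09 ± 0.18 and -3.59 ± 1.04, a difference of -1.50 (2-sided exact permutation test over libraries, p = 0.1, the smallest that 3 against 3 libraries allow).

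In bulk samples fewer cells with Eomes and less Eomes RNA per cell cannot be told apart. Eomes is also a gene of NK cells, and the 12 markers of NK and innate lymphoid cells summed to 1717 to 1825 CPM in CD4-positive and 2639 to 3683 CPM in CD4-negative libraries. Most of each CD4-positive sum was Il7r, which overlapped between the groups (1179 to 1448 against 1365 to 1534 CPM). Of these 12 genes 8 were tested and none passed, 3 had lower non-overlapping values in CD4-positive cells (4.57% over all tested genes), and the median difference was -0.35 (-0.01 over all tested genes). Gzma (granzyme A) was at 201, 109 and 178 CPM against 1059, 735 and 1935 CPM, and Ncr1 (the receptor NKp46) at 20.8, 31.6 and 33.5 CPM against 85.0, 92.8 and 74.7 CPM (edgeR adjusted p = 0.0545 for both). Among the tested markers only Klrb1f had a difference above 0 (0.41), and its groups overlapped, as did those of Itga2, Klri2 and Spry2. Sh2d1b1, an adaptor of NK cells, had 0 counts in all 6 libraries. With Cma1, Klra4 and Klra8 it made up the 4 of 12 markers that averaged under 1 CPM. Whether BALB/c mice carry Klra4 and Klra8 as the reference does was not tested.

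The summed levels of other marker lists were also separated between the groups. The 5 markers of conventional CD8 T cells, which can also express Eomes, summed to 548 to 898 CPM in CD4-positive and 946 to 1314 CPM in CD4-negative libraries, with 0 of 5 past the test and none at 0. Most of that sum was Itgae (292 to 462 against 377 to 688 CPM) and Ly6c2 (188 to 392 against 405 to 585 CPM). Ly6c2 was the 1 gene of 5 whose groups did not overlap, where 4.57% of all tested genes were lower without overlap. Cd8a, a chain of the CD8 coreceptor, overlapped at 28.0, 9.78 and 40.6 CPM against 48.4, 24.0 and 75.8 CPM, as did Cd8b1, and Ccr9 had a difference of the other sign (0.75). The 9 B cell markers summed to 56.6 to 80.7 and 114 to 123 CPM, with 0 of 5 tested genes past the test and Pax5 at 0. Of these 5 genes 4 were lower without overlap in CD4-positive cells (4.57% over all tested genes). The 8 NKT17 markers were low, at 5.53 to 8.66 and 12.6 to 21.2 CPM in sum. All 6 tested differences were below 0 (median -1.36), 2 of them without overlap (4.57% over all tested genes), and none passed the test. In the other direction, the 9 thymic stroma markers summed to 33.4 to 36.3 and 18.2 to 19.5 CPM (5 tested, none passed, 7 under 1 CPM on average). Most of each sum was Pecam1 (30.6 to 33.8 against 15.2 to 16.7 CPM). It was the 1 gene of 5 that was higher without overlap (4.84% over all tested genes). Epcam, Krt5, Krt8 and Col1a1 overlapped between the groups, and Epcam had a difference of the other sign (-0.25). The 7 regulatory T cell markers summed to 197 to 224 and 142 to 182 CPM. By edgeR 1 of 7 was higher in CD4-positive cells (0.0705% over all tested genes), Ikzf2 (log2 1.27, adjusted p = 0.0304). Ikzf2, Il2ra and Nrp1 were the 3 of 7 that were higher without overlap (4.84% over all tested genes). Foxp3, which defines these cells, was at 0.231 to 0.656 and 0.129 to 1.20 CPM.

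The 8 markers of NKT2 cells, the iNKT subset that makes interleukin 4, all had differences above 0, with a median of 1.80, and 6 of 8 had higher non-overlapping values in CD4-positive libraries (4.84% over all tested genes). By edgeR 2 of 8 passed, Ccr4 (log2 2.90, adjusted p = 0.0214) and Izumo1r (log2 2.13, adjusted p = 0.0298), against 0.0705% of all tested genes in that direction. This list was chosen with earlier results of these libraries known, so these counts are a description. The sums overlapped (974 to 1392 and 721 to 1116 CPM), most of each being Ltb, which overlapped between the groups (659 to 975 and 605 to 977 CPM). The 10 immature thymocyte markers overlapped in sum (29.8 to 121 and 35.8 to 159 CPM). The part of any such cells in the Eomes difference was not tested.

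**Figure D2:**
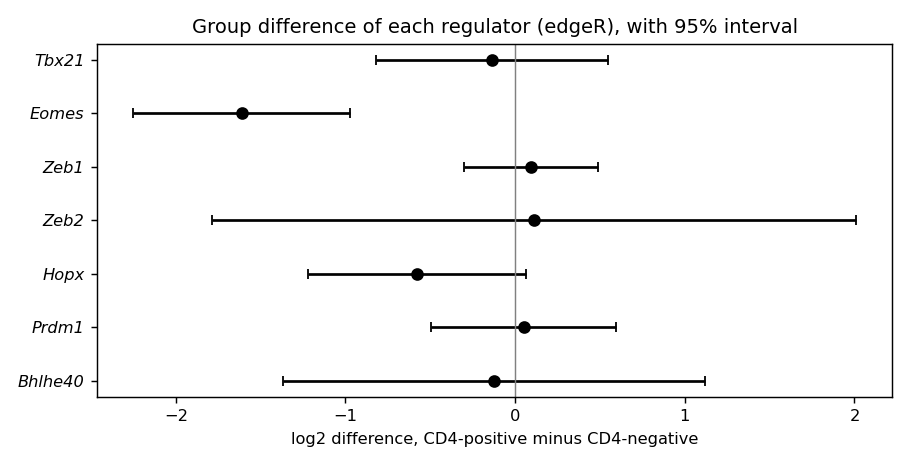
Log2 difference of each regulator between CD4-positive and CD4-negative NKT1 cells from edgeR (points) with its 95% interval (bars); the vertical line marks 0. The Eomes interval (-2.25 to -0.97) lies below 0, that of Hopx reaches 0.07, and those of Zeb2 and Bhlhe40 span from below -1 to above 1.

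Hopx was at 29.7, 50.6 and 49.4 CPM in the CD4-positive libraries and at 70.9, 76.7 and 46.1 CPM in the CD4-negative libraries. CD4-negative replicates 1 and 2 were above all CD4-positive libraries, while CD4-negative replicate 3 lay among them. The means were 43.3 ± 11.7 and 64.6 ± 16.2 CPM, a 1.49-fold higher CD4-negative mean (log2 -0.58, SE 0.28, 95% interval -1.22 to 0.07; edgeR adjusted p = 1.0). The difference was below 0 under all 14 alternatives (-0.77 to -0.37) and none called it. It was -0.92 within replicates 1 and 2 and 0.10 between the replicate 3 libraries. Hopx counts were fractional in 5 of 6 libraries, a sign of reads split over several genes, and the antisense gene Hopxos, which overlaps it, held 28.3 to 87.2 counts against 1446 to 4142 counts of Hopx.

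Zeb1 was at 72.0, 60.1 and 56.0 CPM in the CD4-positive libraries and at 54.4, 54.9 and 67.0 CPM in the CD4-negative libraries. Its values lay close together in both groups, with means of 62.7 ± 8.35 and 58.8 ± 7.09 CPM. The difference of 0.09 (SE 0.17, 95% interval -0.30 to 0.49; edgeR adjusted p = 1.0) had the narrowest interval of the 7 regulators. Without CD4-positive replicate 1, the highest library, it was -0.02.

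Zeb2 was low: 0.76, 1.64 and 0.69 CPM in the CD4-positive libraries and 1.57, 1.15 and 0.13 CPM in the CD4-negative libraries. That is 36 to 84.6 counts in CD4-positive and 5 to 73 counts in CD4-negative libraries, the 5 counts being those of replicate 3. The groups overlapped throughout, with means of 1.03 ± 0.53 and 0.95 ± 0.74 CPM. The difference of 0.11 had an SE of 0.81 and an interval from -1.79 to 2.01, which does not exclude a difference of several-fold either way (edgeR adjusted p = 1.0). The sign turned without CD4-negative replicate 3 (-0.39) and without CD4-positive replicate 2 (-0.39). Zeb2 has the longest annotated exons of the 7 regulators (19.94 kb, all isoforms joined), and CD4-negative replicate 3 is the library where long transcripts lay lowest; the part of this in the Zeb2 value was not tested. Zeb2 is strongly expressed in myeloid cells, of whose 12 markers 11 averaged under 1 CPM.

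The log2 ratio of Zeb1 to Zeb2 in CPM was 6.49, 5.16 and 6.25 in CD4-positive and 5.08, 5.53 and 8.61 in CD4-negative libraries. Per kilobase of exon Zeb1 exceeded Zeb2 in all 6 libraries (5.30 to 7.02 against 0.0065 to 0.0822 CPM per kb). The groups of the ratio overlapped (difference -0.44, 2-sided exact permutation p = 0.9, smallest possible 0.1), and without CD4-negative replicate 3 the difference of the ratio was 0.66.

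Prdm1 was at 10.3, 15.8 and 14.3 CPM in the CD4-positive libraries and at 14.5, 14.4 and 10.2 CPM in the CD4-negative libraries. One library in each group was lower than the others, and the means were 13.5 ± 2.87 and 13.0 ± 2.44 CPM. The difference was 0.05 (SE 0.23, 95% interval -0.50 to 0.60; edgeR adjusted p = 1.0), and it was -0.09 without CD4-negative replicate 3 and -0.08 without CD4-positive replicate 2. Plasma cells, which express Prdm1 strongly, had 4 of 6 markers under 1 CPM on average, with Tnfrsf17 at 0. The others were Xbp1 (49.3 to 108 CPM in CD4-positive and 56.8 to 77.7 CPM in CD4-negative libraries) and Irf4 (6.21 to 6.27 and 4.43 to 5.04 CPM). Irf4 was the 1 of 3 tested genes without overlap (4.84% of all tested genes were higher without overlap). The part of such cells in the Prdm1 values was not tested.

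Bhlhe40 was at 142, 64.6 and 78.1 CPM in the CD4-positive libraries and at 193, 65.7 and 51.2 CPM in the CD4-negative libraries. Replicate 1 was the highest library in each group, and the spread within the groups was larger than the distance between their means (94.9 ± 41.3 and 103 ± 78.3 CPM). The difference was -0.12 (SE 0.53, 95% interval -1.37 to 1.12; edgeR adjusted p = 1.0) and reached 0.70 without CD4-negative replicate 1.

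The genes most like Bhlhe40 in pattern over the 6 libraries, by Pearson correlation of log2 CPM, were Nfkbiz (r = 0.990), Ier5 (r = 0.987) and Fos (r = 0.983). Fos, an immediate early gene, was at 127, 17.2 and 18.2 CPM in CD4-positive and 419, 22.9 and 10.1 CPM in CD4-negative libraries. Nfkbiz was at 22.6, 7.10 and 8.29 CPM against 30.4, 8.09 and 6.13 CPM. All were highest in the replicate 1 libraries. The 10 immediate early and heat shock genes of a list of handling-induced transcripts summed to 3084 and 5160 CPM in the replicate 1 libraries and to 366 to 753 CPM in the other 4. The part of such transcripts in the Bhlhe40 values was not tested.

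**Figure D3:**
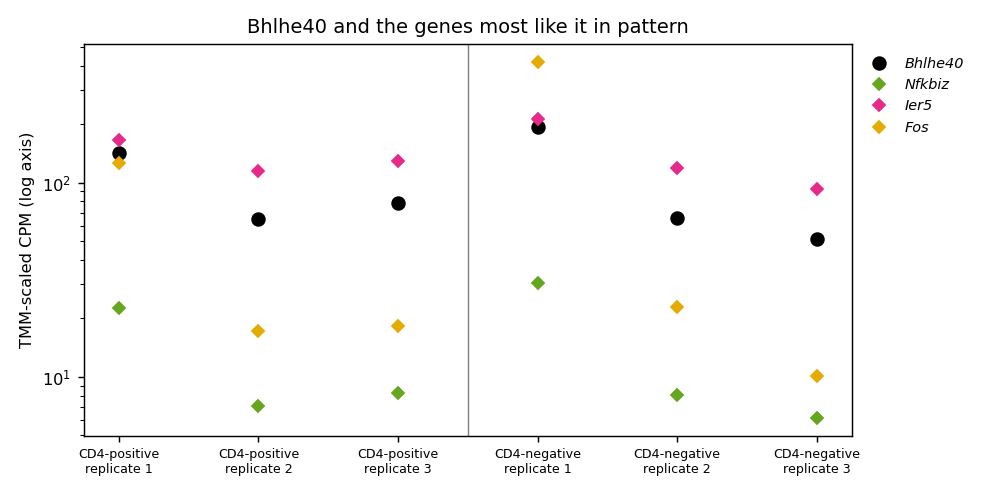
TMM-scaled CPM on a log axis of Bhlhe40 (circles) and of the 3 genes most like it in pattern (diamonds) in each library; the grey line parts the groups. All 4 genes are highest in the replicate 1 libraries, with Bhlhe40 at 142 and 193 CPM there and at 51.2 to 78.1 CPM elsewhere.

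By the same measure the genes most like Eomes were Hagh (r = 0.990), Pea15a (r = 0.984) and Adrb1 (r = 0.981), chosen from 8794 candidates by their values. Adrb1, the beta-1 adrenergic receptor, was at 5.24, 4.70 and 5.55 CPM in CD4-positive and 15.9, 12.3 and 10.5 CPM in CD4-negative libraries. For Tbx21 they were Pef1 (r = 0.996), Rrp12 (r = 0.995) and Pigk (r = 0.992), for Hopx Cd200r4 (r = 0.998), Dirc2 (r = 0.997) and Errfi1 (r = 0.997), and for Zeb1 Zfand5 (r = 0.996), Dld (r = 0.993) and Tardbp (r = 0.993). Those of Zeb2 were Mycbp2 (r = 0.999), Med13 (r = 0.998) and Zfp362 (r = 0.998), and those of Prdm1 were Zfp518a (r = 0.997), Pcyox1 (r = 0.996) and Senp7 (r = 0.995). Each pattern rests on 6 libraries that share depth and quality differences, and CD4-negative replicate 3 had the highest value of Pef1, Rrp12 and Pigk and the lowest of Mycbp2, Med13 and Zfp362.

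Levels of different genes were compared per kilobase of exon (GENCODE M21, isoforms joined), which understates genes of which a short isoform is used. Tbx21 led by far, at 160 ± 20.5 CPM per kb in CD4-positive and 175 ± 72.2 CPM per kb in CD4-negative cells, and lay between percentiles 97.0 and 98.2 of tested genes in each library. In CD4-positive cells it was followed by Hopx (28.5 ± 7.73 CPM per kb), Bhlhe40 (20.2 ± 8.79), Zeb1 (6.11 ± 0.81), Eomes (2.81 ± 0.50), Prdm1 (2.41 ± 0.51) and Zeb2 (0.052 ± 0.026). The libraries of Hopx and Bhlhe40 overlapped, as did those of Eomes and Prdm1. In CD4-negative cells the order was Tbx21, Hopx (42.6 ± 10.7 CPM per kb), Bhlhe40 (22.0 ± 16.6), Eomes (8.58 ± 2.76), Zeb1 (5.72 ± 0.69), Prdm1 (2.33 ± 0.44) and Zeb2 (0.048 ± 0.037). There Hopx overlapped Bhlhe40, Bhlhe40 overlapped Eomes, and Eomes overlapped Zeb1. Eomes was below Zeb1 per kilobase in all 3 CD4-positive libraries and above it in CD4-negative replicates 1 and 2 (11.4 against 5.30 and 8.53 against 5.35 CPM per kb), but not in replicate 3 (5.84 against 6.52).

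Among 17 T-box genes 4 were tested: Tbx21, Eomes, Mga and Tbx6. Mga, a partner of MAX with a T-box domain, was at 63.7 to 134 CPM in CD4-positive and 51.7 to 109 CPM in CD4-negative libraries, and Tbx6 at 0.289 to 1.10 and 0.495 to 2.04 CPM. The other 13 were too low to be tested, and 6 of them had 0 counts in all libraries. Of the 15 PRDM genes 7 were tested, none passed, and the median difference was 0.05. The smallest p among the paralogs were those of Prdm10 (5.76 to 10.7 against 2.24 to 9.42 CPM) and Prdm9 (4.15 to 8.58 against 4.90 to 5.44 CPM). Prdm2, which like Prdm1 carries a PR domain, was at 79.3 to 140 and 86.0 to 136 CPM. Bhlhe41, the paralog of Bhlhe40, was too low to be tested, as were Bhlhe22 and Bhlhe23.

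Of the 22 type 1 effector genes linked to T-bet, 21 were tested. By edgeR 1 was lower in CD4-positive cells (0.141% over all tested genes) and none was higher (0.0705%). The groups did not overlap in 5, all lower in CD4-positive cells (4.57% over all tested genes). The median difference was -0.24 (-0.01 over all tested genes). This list too was chosen with earlier results known. The gene that fell was Ccl5, a chemokine of effector T cells and NK cells, from 494, 471 and 414 CPM in CD4-negative to 92.6, 92.7 and 98.9 CPM in CD4-positive libraries (log2 -2.28, adjusted p = 0.00522). Il2rb, the receptor chain for interleukins 2 and 15 that T-bet and Eomes both induce, was at 1282 to 2280 and 1272 to 1756 CPM (log2 0.19, adjusted p = 1.0), and Cxcr3, a chemokine receptor induced by T-bet, at 175 to 455 and 153 to 316 CPM. Perforin (Prf1), an Eomes target in CD8 T cells, was at 70.4, 75.2 and 96.1 CPM against 128, 139 and 174 CPM (log2 -0.87, edgeR adjusted p = 0.255).

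The genes of late effector cells and NK maturation include targets of T-bet and Zeb2. Of 15 listed 13 were tested, 5 were lower in CD4-positive cells by edgeR (0.141% over all tested genes), none was higher (0.0705%), and the median was -1.20 (-0.01 over all tested genes). The list was drawn up with earlier results of these libraries known, and the 5 that passed (Emilin2, Syk, Serpinb9b, S1pr5 and Cd244) were known to pass, so this count is a description. S1pr5, a sphingosine 1-phosphate receptor that T-bet and Zeb2 induce in NK cells, fell from 9.60, 7.75 and 11.6 CPM in CD4-negative to 2.47, 2.39 and 1.93 CPM in CD4-positive libraries (log2 -2.09, edgeR adjusted p = 0.0308). Serpinb9b, a serpin, fell by 2.49 on the log2 scale, and Emilin2, a matrix glycoprotein, fell by 2.66. By edgeR no gene at all passed when any 1 of the 5 libraries other than CD4-negative replicate 3 was left out.

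**Figure D4:**
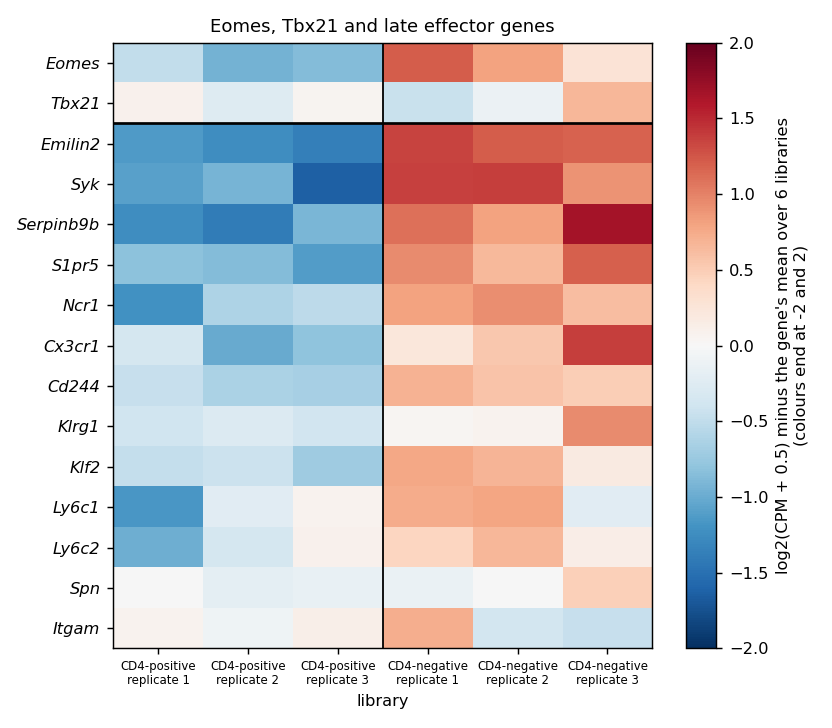
Level of Eomes, Tbx21 and the 13 tested late effector genes in each library, as log2(CPM + 0.5) minus the mean of the gene over the 6 libraries (red higher, blue lower), with list genes ordered by their difference. Eomes is higher in each CD4-negative library (24.3 to 47.2 CPM) than in each CD4-positive library (10.2 to 14.0 CPM), as are Emilin2, Syk, Serpinb9b and S1pr5, while Tbx21 is highest in CD4-negative replicate 3 (639 CPM) and lowest in CD4-negative replicate 1 (297 CPM).

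Of 15 memory and naive-like T cell genes, which Zeb1 and Eomes are linked to, all were tested and none passed (median 0.25). Slamf6, a receptor of memory-like cells, was at 42.8, 37.2 and 38.5 CPM against 18.2, 12.0 and 15.7 CPM (log2 1.37, edgeR adjusted p = 0.0574). Tcf7, the factor TCF-1 of memory cells, was at 308 to 439 and 201 to 387 CPM. Of 16 tissue residency genes, a programme that Blimp-1 shares with its homolog Hobit, all were tested and none passed (median 0.00). Zfp683, which encodes Hobit, was at 122, 133 and 141 CPM against 121, 139 and 111 CPM (log2 0.10), P2rx7, a channel gated by ATP, at 2.65, 5.21 and 7.67 CPM against 1.31, 0.722 and 0.652 CPM (adjusted p = 0.136), and Pdcd1 (PD-1) at 40.1, 39.6 and 53.6 CPM against 22.8, 22.3 and 22.4 CPM (adjusted p = 0.109).

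Of 13 genes that Blimp-1 represses in lymphocytes 11 were tested and none passed, with a median of -0.10. Klf2, a factor of thymic exit, was at 106, 109 and 90.2 CPM in CD4-positive and 253, 238 and 167 CPM in CD4-negative libraries (log2 -1.11, edgeR adjusted p = 0.117). Of 24 other transcription factors of effector cells 22 were tested and none passed (median 0.07). Tox, a factor of iNKT and CD4 lineage development, was at 57.3, 63.3 and 78.6 CPM against 31.9, 26.4 and 26.9 CPM (log2 1.22, edgeR adjusted p = 0.0590), and Runx1 at 21.8, 24.9 and 22.8 CPM against 16.3, 16.2 and 9.74 CPM (adjusted p = 0.692). Stat4, which carries the interleukin 12 signal, was at 238 to 272 and 267 to 285 CPM. All 12 lineage factors of iNKT subsets were tested and none passed (median 0.32); Egr2, which acts upstream of the iNKT factor PLZF, was at 32.1, 33.7 and 35.7 CPM against 18.1, 18.2 and 17.9 CPM (edgeR adjusted p = 0.0706), and Maf at 187, 170 and 134 CPM against 90.5, 80.3 and 77.8 CPM (adjusted p = 0.109).

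**Figure D5:**
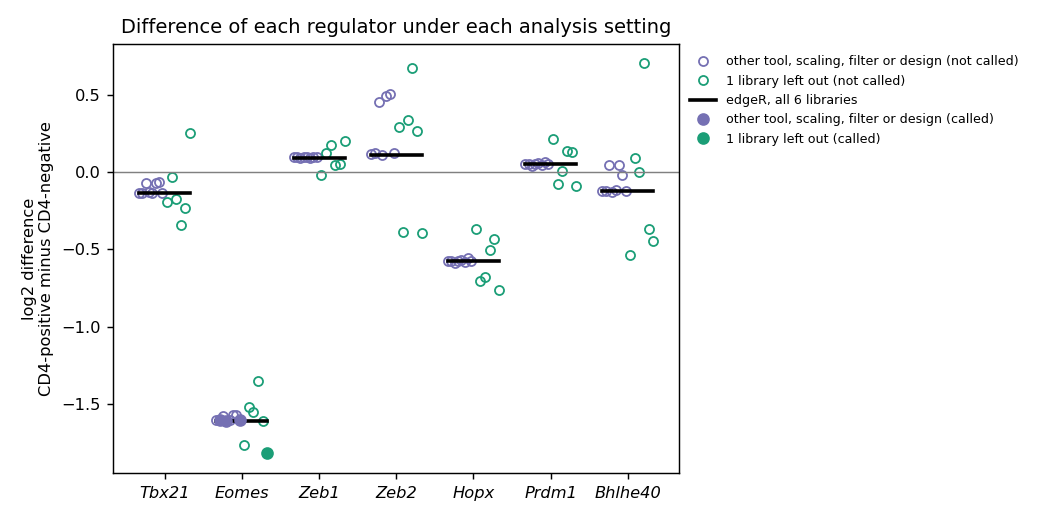
Log2 difference of each regulator with all 6 libraries by edgeR (black bars), under other tools, scalings, filters and designs (purple) and with 1 library left out (green); filled circles are called at an adjusted p under 0.05. Eomes lies between -1.82 and -1.35 and is called in 4 of 14 alternatives, Hopx lies below 0 in all 14, and the other 5 regulators cross 0.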

How the data were processed

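The authors deposited 1 table of estimated counts (expected counts per gene, not normalised) for 6 libraries; STAR, Picard, RSEM and mm10 are named, without roles, per the submitters' processing notes. For the annotation and strandedness of counting, no label or header gives a value. Columns were matched by library name, and values rounded to whole numbers. The regulators and lists were chosen with earlier results of these data known. In R 4.3.3, edgeR 4.0.16 was used with filterByExpr, TMM scaling and the robust 2-sided quasi-likelihood F test on group alone, with Benjamini-Hochberg adjustment over 12760 genes at 0.05 (common dispersion 0.0994), after a test on simulated data; SE and 95% intervals come from the F statistic and its degrees of freedom. Log2 CPM used a prior count of 2. Named were the 7 regulators, from each list called members or else the 2 with the smallest p, and the 3 genes most correlated with each regulator (mean of at least 5 CPM, no predicted genes). Other list genes, such as Il2rb, Cxcr3, Tcf7, Zfp683, Stat4, Mga, Tbx6 and Prdm2, were named after their values were seen. Itgam has 2 rows, of which the one with more counts was used. Alternatives were RLE scaling, DESeq2 1.42.0, limma-voom (limma 3.58.1), other filters, the replicate number and the library naming scheme as terms, each library left out and, added after seeing the data, DESeq2 on the filtered genes. Libraries of a group differed by more than sampling noise (chi-square per degree of freedom 55.6 to 400), so all were kept. Coordinates and exon lengths come from GENCODE M21 (GRCm38), which held 47224 of the identifiers with versions ignored. Some list members count in the list totals but are not reported here by name.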

Additional observations from a re-analysis of the deposited data

How the results depend on the processing

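The 27 genes called over all 12760 became 28 with RLE scaling, 29 with limma-voom and 29 at a mean of at least 5 CPM, but 162 with DESeq2 on all genes with a count, 191 with DESeq2 on the filtered genes, 67 with no filter on low counts, 11 with the naming scheme as a batch term and 0 with the replicate block (531 at an unadjusted p under 0.05). With 1 library left out there were 0 to 44, the 44 without CD4-negative replicate 3 and 0 without any other (439 to 585 at an unadjusted p under 0.05). Of the 7 regulators 0 were called, or 1, Eomes, with either DESeq2 run, with no filter and without CD4-negative replicate 3 (0 to 1 with a library left out). The Eomes difference was -1.61 with DESeq2 on all genes with a count (adjusted p = 1.76e-05), -1.61 with DESeq2 on the filtered genes (1.18e-05), -1.61 with no filter (0.0285) and -1.82 to -1.35 with a library left out (0.0301 to 0.541); with the replicate block it was -1.57 (0.183). Hopx was below 0 throughout (-0.77 to -0.37). The sign of the other 5 was not stable: Bhlhe40 was 0.043 with limma-voom, 0.045 with the replicate block and -0.54 to 0.70 with a library left out, where Tbx21 ranged from -0.34 to 0.25, Zeb1 from -0.017 to 0.20, Zeb2 from -0.39 to 0.67 and Prdm1 from -0.094 to 0.21. The Zeb1 to Zeb2 log2 ratio difference ranged from -1.10 to 0.66. The cause of these changes was not tested. Deviations of same-numbered libraries from their group means had correlations of -0.08, 0.34 and 0.04 over genes for replicates 1, 2 and 3. These were not over 0.1 in every pair, so the main test did not pair libraries by number. The replicate 1 libraries did share high immediate early and heat shock genes (3084 and 5160 CPM in sum, 366 to 753 CPM in the rest). Whether same-numbered libraries are paired is not known from the labels. The replicate 2 libraries correlated best with each other, but not every library correlated best with its own number. Low counts limit the precision of Zeb2 (5 to 84.6 counts per library).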
